A study of Silurus asotus with 15 samples.

Results

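The maxillary and mandibular barbels of the Amur catfish (Silurus asotus), the whisker-like feelers of the upper and lower jaw, were set against skin from the same species. The 3 libraries belong to a survey of 15 tissues of adult fish taken from the bottom of their habitat, with 1 poly(A) RNA-seq library per tissue, no stated treatment and no replicate. The labels do not say whether the barbels and the skin came from the same fish, from how many fish, or from which part of the body the skin was cut. Expression was given for 25089 genes as FPKM, the fragments of a gene scaled by its length and by the mapped fragments of the library. A gene was called higher in barbels when the lower of its 2 barbel values was at least 5 FPKM and lay at least 2 above skin on log2(FPKM + 1), which is 4-fold on that scale. It was called higher in skin when skin had at least 5 FPKM and lay as far above the higher of the 2 barbels. By this rule 113 of 25089 genes were higher in both barbels (2.53% of the 4475 compared) and 131 were higher in skin (2.69% of the 4877 compared). With 1 library per tissue there was no replicate check and no test, so every difference describes these libraries.

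Catfish barbels are covered by an epidermis of stratified, unkeratinised cells like that of the body, into which many taste buds are set. In a vertebrate taste bud, receptor cells bind sweet, bitter or amino acid ligands through G protein-coupled receptors. The G protein activates a phospholipase C, calcium is released from stores through the inositol trisphosphate receptor, the cation channel TRPM5 opens, and ATP leaves through CALHM channels to excite nerve fibres. The cell bodies of those fibres lie in cranial ganglia and not in the barbel. Skin proper lies on a collagen-rich dermis and, in fish, over body muscle.

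Most expressed genes were at a like level in the 3 libraries. Of 3824 genes with at least 5 FPKM in all 3, 2986 (78.1%) lay within 1 of each other on log2(FPKM + 1), and these held 70.4% of all FPKM in maxillary barbel and 70.1% in mandibular barbel, against 75.2% in skin. Genes at 1 FPKM or more numbered 10899 for the maxillary barbel and 10932 for the mandibular barbel, against 10985 for skin. All 3 libraries were shallow: multiplying low FPKM values by coding length in kilobases gave an estimate of what 1 fragment is worth, whose commonest value was 0.129 for the maxillary barbel and 0.1175 for the mandibular barbel, against 0.1175 for skin and 0.0204 to 0.0224 for 11 of the other libraries. This estimate was close among the 3, and no other measure of depth was had. The libraries labelled brain and gill carry markers that go against their names (the list of nerve genes summed to 33.6 FPKM in the library labelled brain and 4297 FPKM in the library labelled gill) and are named by label only.

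**Figure D1:**
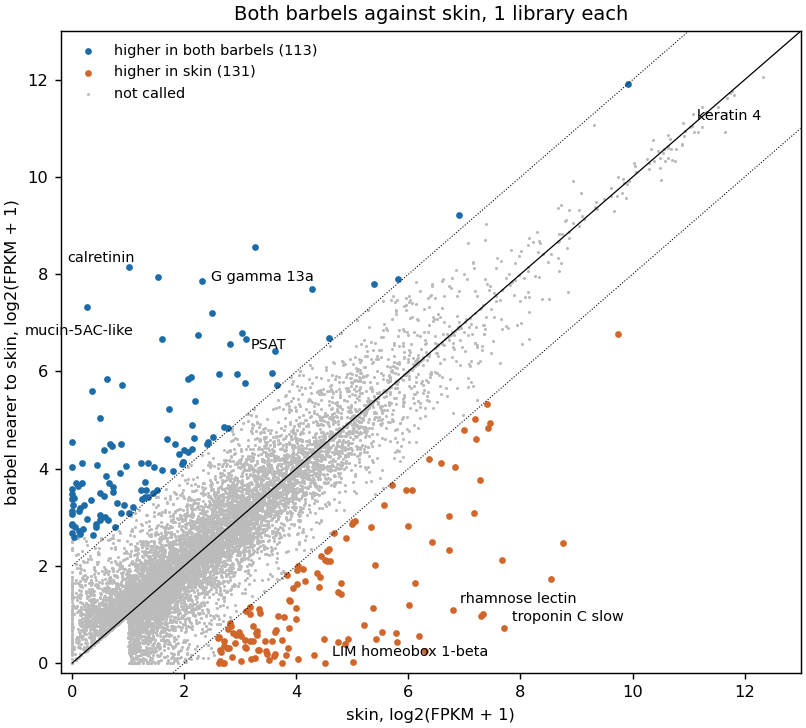
Each point is 1 of the 12610 genes at 1 FPKM or more in any of the 3 libraries. Skin is on the x axis and the barbel whose value lies nearer to skin is on the y axis, both as log2(FPKM + 1). For the 2476 genes with skin between the barbels the skin value is plotted on both axes, which puts them on the line of equality. The dotted lines lie 2 above and 2 below equality. The 113 genes higher in both barbels are blue and the 131 higher in skin are orange. Most genes lie close to the line of equality, in part through this choice of the plotted value.

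On the barbel side, 113 of the 4475 genes with a lower barbel of at least 5 FPKM were called (2.53%), and 89 of them carried a protein name. Their differences from skin ran from 2.0022 to 7.13, with a median of 2.80, and 14 were at 4 or more. In skin 10 of them were listed at 0 and 56 were under 1 FPKM. Between the barbels, 108 of the 113 (95.6%) lay within 1 of each other on log2(FPKM + 1), against 97.8% of all 4475 compared genes; the rule itself uses both barbels. The median difference between the barbels was 0.250, against 0.211 over all 4475 compared genes. Together the 113 genes held 3.85% of summed FPKM in maxillary barbel and 4.13% in mandibular barbel, against 0.598% in skin. At the edge of the rule, an unnamed gene, C0J50_17775, had 3879.7 and 4784 FPKM in maxillary and mandibular barbel, against 968 FPKM in skin, and was just inside at 2.0022. S100 calcium binding protein U (C0J50_10200) had 123 FPKM in the maxillary and 109 FPKM in the mandibular barbel, against 26.7 FPKM in skin, and was just outside at 1.99.

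Genes of the taste signalling chain were among the leading genes of the barbel side. Of the 50 entries in a list of taste cell genes, 42 matched a protein name and 26 had 1 FPKM or more in any of the 3 libraries. Of the 12 with a lower barbel of at least 5 FPKM, 6 were called (50%, against 2.53% of all), and none of the 5 compared on the skin side was. This list was chosen with earlier results of these data known, so the share is no independent support. The list's median difference was 1.303, against 0.00 over all 12610 genes at 1 FPKM or more, and 20 of the 26 were above skin in both barbels. In bulk tissue, fewer cells of a type and less RNA per cell cannot be told apart, here and in each list below.

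Both genes that mark the barbels stood far above skin. They are taste list members chosen with the comparison, so their values describe it and give no separate support. Calretinin (C0J50_20057), a calcium-binding protein of taste cells in fish, had 246 and 260.3 FPKM in maxillary and mandibular barbel, against 1.87 FPKM in skin, a difference of 6.43. The G protein subunit gamma 13a (C0J50_08871), the gamma chain of the taste G protein, had 232 FPKM in the maxillary and 380.4 FPKM in the mandibular barbel, against 3.98 FPKM in skin, a difference of 5.55. Skin was low for both, but above the estimated value of 1 fragment, 0.148 FPKM for calretinin and 0.585 FPKM for gamma 13a. None of the other 12 libraries passed 1.60 FPKM for calretinin or 3.24 FPKM for gamma 13a. The model of gamma 13a is partial, with 201 coding bases.

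Other links of the chain followed at lower levels. The G protein beta chain gnb3 (C0J50_20523) had 11.995 and 14.8 FPKM in maxillary and mandibular barbel, against 0.122 FPKM in skin, a difference of 3.53. The G protein alpha chain gna14 (C0J50_19015), found in taste cells of fish, had 13.3 FPKM in the maxillary and 14.9 FPKM in the mandibular barbel, against 0.514 FPKM in skin, a difference of 3.24. Regulator of G-protein signaling 21 (C0J50_04519), which shortens G protein signals and is known from taste cells in mammals, had 15.3 and 17.4 FPKM in maxillary and mandibular barbel and was listed at 0 in skin. For the 3 genes the barbels were close to each other and skin was under 1 FPKM.

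No phospholipase C of the taste list was called. The list held the phospholipases plcb2 and plcb4, of which plcb4 (C0J50_04919) had 0.536 and 0.440 FPKM in maxillary and mandibular barbel, against 1.83 FPKM in skin. A phospholipase C annotated as beta-3 (C0J50_01517) had 9.59 FPKM in the maxillary and 14.3 FPKM in the mandibular barbel, against 0.0277 FPKM in skin, a difference of 3.37; it is outside the named-gene rule and was chosen after its values were seen. Its deposited name gives beta-3, while a family motif deposited for the same model gives beta-2. Which beta paralog it is was not tested. A further gene annotated as beta-3 (C0J50_15032) had 3.43 and 3.24 FPKM in maxillary and mandibular barbel, against 2.41 FPKM in skin. A further beta-4 gene (C0J50_22235) had 0.245 and 0.222 FPKM in maxillary and mandibular barbel, against 2.49 FPKM in skin. The inositol trisphosphate receptor itpr3 (C0J50_05670), which releases the stored calcium, had 13.4 and 14.6 FPKM in maxillary and mandibular barbel, against 13.6 FPKM in skin, and was at a like level in the 3 libraries.

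Receptors and channels of taste cells had the same direction but mostly lay under the 5 FPKM minimum. The taste receptor tas1r3 (C0J50_17991) had 3.75 FPKM in the maxillary and 5.22 FPKM in the mandibular barbel, against 0.0744 FPKM in skin. The channel trpm5 (C0J50_14726) had 2.90 and 3.63 FPKM in maxillary and mandibular barbel, against 0.0575 FPKM in skin. The ATP channel subunit calhm3 (C0J50_15890) had 3.67 FPKM in the maxillary and 6.30 FPKM in the mandibular barbel, against 0.0490 FPKM in skin, and its neighbour calhm1 (C0J50_15891) had 2.06 and 2.72 FPKM in maxillary and mandibular barbel, against 0.112 FPKM in skin. These 4 were low in both barbels and close to 0 in skin. A bitter receptor of the type 2 family (C0J50_02574) had 1.15 and 1.82 FPKM in maxillary and mandibular barbel and was listed at 0 in skin.

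Transcription factors of the taste lineage were split by the rule. Sox-2 (C0J50_05979), required in mammals for taste bud formation, had 68.5 FPKM in the maxillary and 62.005 FPKM in the mandibular barbel, against 10.8 FPKM in skin, a difference of 2.41. The receptor-cell factor pou2f3 (C0J50_07044) had 7.99 and 10.8 FPKM in maxillary and mandibular barbel, against 2.75 FPKM in skin, a difference of 1.26 and so not called. An unnamed gene whose motif is that of POU class 2 associating factor 1 (C0J50_20227) had 14.1 FPKM in the maxillary and 15.2 FPKM in the mandibular barbel, against 0.808 FPKM in skin, and was called at 3.06; it was chosen after its values were seen. The ATP-degrading enzyme entpd2 (C0J50_11779), of supporting cells in mammalian taste buds, had 34.1 and 29.2 FPKM in maxillary and mandibular barbel, against 20.6 FPKM in skin.

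Names related to the chain were searched after the values were seen. Of 32 genes at 1 FPKM or more named as phospholipase C beta, polycystic kidney disease, plastin, transmembrane channel-like, inhibitory G alpha or RGS proteins, 16 were above skin in both barbels and 15 below, 4 were called in barbels and 0 in skin. Over all 12610 genes at 1 FPKM or more, 5394 were above and 4740 below, and 113 and 131 were called. Polycystic kidney disease protein 1-like 2 (C0J50_06898), of a family whose members pair with PKD2-type channels, had 9.42 and 11.4 FPKM in maxillary and mandibular barbel and was listed at 0 in skin. Plastin-1 (C0J50_04492), an actin bundler of microvilli, had 7.41 and 8.9976 FPKM in maxillary and mandibular barbel and was listed at 0 in skin. Regulator of G-protein signaling 4 (C0J50_09205) lay the other way, with 0.758 FPKM in the maxillary and 0.142 FPKM in the mandibular barbel, against 4.10 FPKM in skin. Adenylate cyclase type 2 (C0J50_23443), which makes cyclic AMP and is not among the 32, had 17.7 and 16.6 FPKM in maxillary and mandibular barbel, against 2.92 FPKM in skin. The channel pkd2l1 (C0J50_15894), a list member, had 0.791 FPKM in the maxillary and 1.10 FPKM in the mandibular barbel, against 0.0995 FPKM in skin, near 1 FPKM in both barbels.

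**Figure D2:**
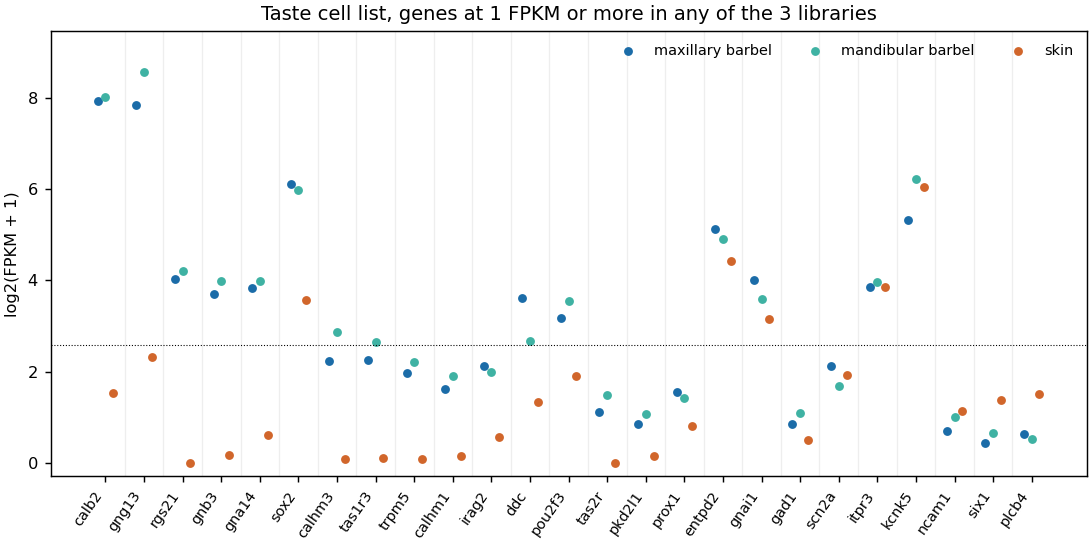
Log2(FPKM + 1) is plotted on the y axis for 25 of the taste list genes at 1 FPKM or more in any of the 3 libraries, ordered on the x axis by their difference. The maxillary barbel, the mandibular barbel and skin are points side by side, and the dotted line marks 5 FPKM. Calretinin (calb2) and gng13 stand highest over skin, and for 19 of the 25 both barbels lie above skin.

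The listed genes of nerve fibres were too low in the 3 libraries for the rule to compare, so the data say little on nerve. Of 48 entries, 39 matched a name, only 5 reached 1 FPKM in any of the 3 libraries, and 0 reached 5 FPKM in both barbels or in skin. The list's matched rows summed to 10.5 FPKM in maxillary barbel and 13.4 FPKM in mandibular barbel, against 12.6 FPKM in skin. The growth-cone protein gap43 (C0J50_15434) had 0.706 and 1.54 FPKM in maxillary and mandibular barbel, against 0.353 FPKM in skin, and the substance P precursor tac1 (C0J50_13527) had 4.77 FPKM in the maxillary and 5.33 FPKM in the mandibular barbel, against 4.70 FPKM in skin. Schwann cell and myelin genes gave no call among 2 compared on the barbel side and 3 on the skin side, with a median of 0.00. By every row 1 of 6 was called in skin (16.7%, against 2.69% of all), the fatty acid binding protein 7 gene C0J50_06121. It had 0.358 and 0.476 FPKM in maxillary and mandibular barbel, against 72.2 FPKM in skin. Myelin basic protein (C0J50_24484) had 2.70 FPKM in the maxillary and 4.21 FPKM in the mandibular barbel, against 0.573 FPKM in skin, higher in both barbels but under the minimum. Of the 24 entries for mechanosensory and Merkel cells, 3 reached 1 FPKM and 0 reached 5. So the rule could call no gene of the nerve and mechanosensory lists in either direction. Called genes outside these lists were not sorted by such functions.

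Most listed epidermal genes did not pass the rule in either direction, as over all genes, but the called shares lay above those of all genes. Of 26 keratinocyte and junction genes compared on the barbel side 2 were called (7.69%, against 2.53% of all), of 30 compared on the skin side 3 were called (10%, against 2.69% of all), and the median was 0.23. The epidermal master regulator p63 (C0J50_02879) had 24.2 and 23.3 FPKM in maxillary and mandibular barbel, against 23.9 FPKM in skin, and the tissue marker keratin 4 (C0J50_14910) had 2823 FPKM in the maxillary and 2047 FPKM in the mandibular barbel, against 2087 FPKM in skin. Both are at a like level in the 3 libraries. The list had 15 genes at a like level, and their share of the list genes with at least 5 FPKM in all 3 libraries was not computed.

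Some junction and envelope genes, not all of them list members, were higher in the barbels. Claudin-4 (C0J50_14498), a tight junction protein, had 40.1 and 32.1 FPKM in maxillary and mandibular barbel, against 0.405 FPKM in skin, a difference of 4.56. Envoplakin (C0J50_04109), which binds intermediate filaments to the cell envelope, had 28.9 FPKM in the maxillary and 27.6 FPKM in the mandibular barbel, against 5.84 FPKM in skin, and a further envoplakin gene (C0J50_19371) had 21.9 and 22.1 FPKM in maxillary and mandibular barbel, against 2.58 FPKM in skin. Their partner periplakin (C0J50_02477) had 133 FPKM in the maxillary and 132 FPKM in the mandibular barbel, against 32.8 FPKM in skin, and missed the rule at 1.98. The claudin neighbour of claudin-4 on the same scaffold, claudin f (C0J50_14497), had 12.3 and 15.8 FPKM in maxillary and mandibular barbel, against 1.45 FPKM in skin, while claudin a (C0J50_14496) beside them had 173 FPKM in the maxillary and 151 FPKM in the mandibular barbel, against 187 FPKM in skin. The next gene, claudin j (C0J50_14499), had 1.32 and 0.982 FPKM in maxillary and mandibular barbel, against 0.344 FPKM in skin. Of these 4 neighbours 2 were called, and both barbels were above skin in all but claudin a. Uroplakin 2-like (C0J50_07045), of a family of apical membrane plaques, had 20.977 FPKM in the maxillary and 27.4 FPKM in the mandibular barbel, against 0.634 FPKM in skin.

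The list genes called in skin were laminin gamma-2, desmoglein-2 and a cytokeratin. The laminin chain gamma-2 (C0J50_04564), part of the basement membrane under keratinocytes, had 3.83 and 6.42 FPKM in maxillary and mandibular barbel, against 31.2 FPKM in skin, a difference of -2.12. Its partners did not pass the rule: collagen XVII (C0J50_15878) had 16.3 FPKM in the maxillary and 27.3 FPKM in the mandibular barbel, against 61.9 FPKM in skin, and integrin beta-4 (C0J50_22052) had 14.8 and 27.1 FPKM in maxillary and mandibular barbel, against 54.9 FPKM in skin. In each of the 3 genes skin was above both barbels and mandibular barbel was above maxillary barbel. Claudin-1 (C0J50_18812) had 3.42 FPKM in the maxillary and 9.01 FPKM in the mandibular barbel, against 22.6 FPKM in skin, a difference of -1.24 and so not called. Desmoglein-2 (C0J50_13695), a desmosomal cadherin, had 0.266 and 0.404 FPKM in maxillary and mandibular barbel, against 21.7 FPKM in skin, with 28.4 FPKM in heart. The cytokeratin of the enveloping layer (C0J50_06152) had 2.97 FPKM in the maxillary and 2.76 FPKM in the mandibular barbel, against 15.3 FPKM in skin.

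Mucous cell genes leaned to the barbels. Of 10 compared on the barbel side 2 were called (20%, against 2.53% of all), none of 8 on the skin side was, and the median over 13 genes was 0.83. Mucin-5AC-like (C0J50_04388), named after a secreted gel-forming mucin, had 123 and 101 FPKM in maxillary and mandibular barbel, against 2.05 FPKM in skin, with 726 FPKM in the library labelled brain. Its model has 1014 coding bases and no listed motif, so the function rests on the name. Other rows of the same name differed less, such as C0J50_04391 with 102 FPKM in the maxillary and 66.5 FPKM in the mandibular barbel, against 18.4 FPKM in skin. The mucin core enzyme gcnt3 (C0J50_13960) had 6.69 and 5.18 FPKM in maxillary and mandibular barbel, against 0.289 FPKM in skin. The mucous cell disulfide isomerase agr2 (C0J50_10188) had 94.6 FPKM in the maxillary and 87.2 FPKM in the mandibular barbel, against 73.6 FPKM in skin, at a like level. The list summed to 488 FPKM in maxillary barbel and 417 FPKM in mandibular barbel, against 187 FPKM in skin, and to 1279 FPKM in the library labelled brain, whose part in the result was not tested. Mucins hold repeats, and reads can be shared among their copies, so values of single rows are uncertain.

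The largest difference on the barbel side belonged to an unnamed gene. C0J50_08508, with a zona pellucida motif, a polymer-forming module of extracellular coats, had 284 and 486 FPKM in maxillary and mandibular barbel, against 1.03 FPKM in skin, a difference of 7.13. It lies on scaffold1628 (bases 51071 to 56888, minus strand), near C0J50_08510 with 56.6 FPKM in the maxillary and 120.5 FPKM in the mandibular barbel, against 0.546 FPKM in skin, and C0J50_08511 with 21.7 and 23.1 FPKM in maxillary and mandibular barbel, against 0.593 FPKM in skin, which carry the same motif. All 3 were lower in maxillary than in mandibular barbel, and skin was near 1 FPKM or below. Of 50 gene models with this motif 7 had a lower barbel of at least 5 FPKM, and 5 were called (71.4%, against 2.53% of all compared genes), while 0 of 1 was called on the skin side. The other 2 called were C0J50_21435, with 292 FPKM in the maxillary and 206 FPKM in the mandibular barbel, against 18.5 FPKM in skin, and C0J50_02357, with 16.3 and 16.985 FPKM in maxillary and mandibular barbel, against 1.56 FPKM in skin. The motif was looked at after the values were seen, and copies this close may share reads.

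Other genes with large differences had varied names. C0J50_14946, annotated as vegetative cell wall protein gp1-like, whose motif is that of glycoside hydrolase family 22, the family of C-type lysozymes, had 158 FPKM in the maxillary and 169.6 FPKM in the mandibular barbel, against 0.203 FPKM in skin. An interferon-induced transmembrane protein 3 gene (C0J50_07032) had 377 and 399 FPKM in maxillary and mandibular barbel, against 8.60 FPKM in skin, with 1863 FPKM in spleen. Its neighbour named dispanin 2b-like (C0J50_07033) had 146 FPKM in the maxillary and 174 FPKM in the mandibular barbel, against 4.65 FPKM in skin. All 3 were alike in the 2 barbels and far lower in skin. Eosinophil peroxidase (C0J50_18390), the called row in the leucocyte list, had 51.8 and 76.6 FPKM in maxillary and mandibular barbel, against 0.849 FPKM in skin. This row counted only when every matching row was used, where 1 of 9 compared was called (11.1%, against 2.53% of all). By the row with the highest mean 0 of 8 were called. No other leucocyte row was called in either direction. The list's median was -0.31 by the row with the highest mean and -0.44 by every row. The common leucocyte antigen ptprc (C0J50_05531) had 5.75 FPKM in the maxillary and 4.35 FPKM in the mandibular barbel, against 11.7 FPKM in skin, so skin was the higher there.

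Some further genes called on the barbel side were chosen after their values were seen. Inducible nitric oxide synthase 2a (C0J50_14824), which makes nitric oxide, had 25.5 and 21.6 FPKM in maxillary and mandibular barbel, against 0.825 FPKM in skin. NADPH oxidase organizer 1a (C0J50_21906), a subunit of a superoxide-making oxidase, had 7.45 FPKM in the maxillary and 5.9964 FPKM in the mandibular barbel, against 0.0391 FPKM in skin. An unnamed gene with an interleukin-17 motif (C0J50_13177) had 22.3 and 25.993 FPKM in maxillary and mandibular barbel and was listed at 0 in skin. Both TRIM25 genes called in barbels are named after a ubiquitin ligase of antiviral signalling. Only SPRY-type motifs are listed for their models, so the function rests on the name. The copy with the larger difference (C0J50_24088) had 58.037 and 67.6 FPKM in maxillary and mandibular barbel, against 3.35 FPKM in skin. Of 5 compared genes named as globoside N-acetylgalactosaminyltransferases, which add a sugar to a glycolipid, 3 were called (60%, against 2.53% of all). The highest of them (C0J50_10549) had 36.5 FPKM in the maxillary and 45.8 FPKM in the mandibular barbel, against 2.33 FPKM in skin.

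Further leading genes of the barbel side had other functions. Deoxycytidylate deaminase (C0J50_15803), of pyrimidine nucleotide synthesis, had 47.1 and 59.981 FPKM in maxillary and mandibular barbel, against 0.285 FPKM in skin. The C19orf12 homolog (C0J50_10661) had 155 FPKM in the maxillary and 107 FPKM in the mandibular barbel, against 3.71 FPKM in skin. Ly-6/neurotoxin-like protein 1 (C0J50_09942) had 16.4 and 20.4 FPKM in maxillary and mandibular barbel, against 0.126 FPKM in skin, with 325 FPKM in the library labelled brain. For each of these 3 genes both barbels lay well above skin.

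Some enzymes of serine, glycine and asparagine metabolism were part of the barbel side. Of 6 list genes compared 2 were called (33.3%, against 2.53% of all) by the row with the highest mean over all 15 libraries, and 3 of 7 when every matching row was counted. Phosphoserine aminotransferase (C0J50_15630), of serine synthesis, had 110.4 FPKM in the maxillary and 119.8 FPKM in the mandibular barbel, against 7.12 FPKM in skin. This row was counted only when every matching row was used. A further row matched to that enzyme had the higher mean over all 15 libraries and was not called. The protein H of glycine cleavage (C0J50_06858) had 52.9 and 68.9 FPKM in maxillary and mandibular barbel, against 7.46 FPKM in skin. Asparagine synthetase (C0J50_19325) had 25.5 FPKM in the maxillary and 20.1 FPKM in the mandibular barbel, against 3.40 FPKM in skin. The enzyme before phosphoserine aminotransferase lay the other way. This phosphoglycerate dehydrogenase, phgdh (C0J50_08556), had 12.9 and 13.3 FPKM in maxillary and mandibular barbel, against 19.5 FPKM in skin. The enzyme after it, phosphoserine phosphatase (C0J50_14470), was above skin in both barbels by less than the rule. It had 15.5 FPKM in the maxillary and 11.1 FPKM in the mandibular barbel, against 5.82 FPKM in skin. The median over 15 list genes was 0.41. Muscle-list member calsequestrin-1 (C0J50_18748), a calcium store protein, was the remaining called list gene on the barbel side, with 15.4 and 15.5 FPKM in maxillary and mandibular barbel, against 1.76 FPKM in skin.

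The barbels and skin differed in homeobox genes, in both directions. Of 272 gene models with a homeobox motif, 5 of 19 compared on the barbel side were called (26.3%, against 2.53% of all), and 7 of 21 on the skin side (33.3%, against 2.69%). Homeobox factors bind DNA and fix the identity of regions and cell types during development. The motif was counted after the values were seen.

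Barbel homeobox genes included factors known from the developing head. Dlx4b (C0J50_13528), of the Distal-less family, had 29.8 FPKM in the maxillary and 23.3 FPKM in the mandibular barbel, against 2.22 FPKM in skin, and MSH-B (C0J50_22705), of the Msx family, had 27.9 and 23.7 FPKM in maxillary and mandibular barbel, against 3.53 FPKM in skin. EMX2 (C0J50_01346) had 8.49 FPKM in the maxillary and 6.68 FPKM in the mandibular barbel, against 0.407 FPKM in skin. In each of these genes both barbels were above skin and close to each other. NK3 homeobox 3 (C0J50_10418), a called gene outside the lists and chosen after its values were seen, had 6.28 and 15.5 FPKM in maxillary and mandibular barbel and was listed at 0 in skin, with 62.3 FPKM in testis. Dlx3b (C0J50_13529), the neighbour of Dlx4b, had 104 and 90.8 FPKM in maxillary and mandibular barbel, against 32.6 FPKM in skin, and was not called at 1.45. In the list of head, face and limb patterning factors 4 of 8 compared on the barbel side (50%, against 2.53% of all) and 1 of 7 on the skin side (14.3%, against 2.69%) were called, and the median over 29 genes was 0.59.

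Most skin homeobox genes belonged to Hox clusters. Genes of the Hox clusters give body segments their position along the head-to-tail axis, and 5 of 6 compared were called in skin (83.3%, against 2.69% of all). Hox-C3a (C0J50_06320) had a listed 0 in the maxillary and 0.0615 FPKM in the mandibular barbel, against 15.4 FPKM in skin, and Hox-C6a (C0J50_06317) on the same scaffold was listed at 0 in both barbels and had 12.4 FPKM in skin. A further Hox-C6a (C0J50_24568) had 0.148 and 1.20 FPKM in maxillary and mandibular barbel, against 14.974 FPKM in skin, Hox-C11a beside it (C0J50_24567) had a listed 0 in the maxillary and 0.0603 FPKM in the mandibular barbel, against 8.14 FPKM in skin, and Hox-C4a (C0J50_24570) had 0.202 FPKM in the maxillary and a listed 0 in the mandibular barbel, against 5.20 FPKM in skin. The barbels were near 0 for these 5 genes, and skin lay above them all. The muscle library had 2.07, 2.36, 16.9, 8.16 and 32.6 FPKM for them, in the same order, and the part of muscle in the skin values was not tested. The 33 Hox rows summed to 7.83 FPKM in maxillary barbel and 15.9 FPKM in mandibular barbel, against 70.3 FPKM in skin.

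Other homeobox genes lay outside the Hox clusters or outside the rule. Hox-A13b (C0J50_22910) had 4.76 FPKM in the maxillary and 8.08 FPKM in the mandibular barbel, against 0.781 FPKM in skin, higher in both barbels but with maxillary barbel under the minimum. LIM homeobox transcription factor 1-beta (C0J50_02560), a factor of dorsal limb identity in mammals, had 21.7 FPKM in skin and was listed at 0 in both barbels and in muscle. IRX-2 (C0J50_20446), a homeodomain protein by name whose model carries no counted motif, had a listed 0 in the maxillary and 0.133 FPKM in the mandibular barbel, against 11.3 FPKM in skin, with 13.5 FPKM in heart, and Lhx8 (C0J50_06649) had 0.557 FPKM in the maxillary and 0.550 FPKM in the mandibular barbel, against 6.83 FPKM in skin.

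**Figure D3:**
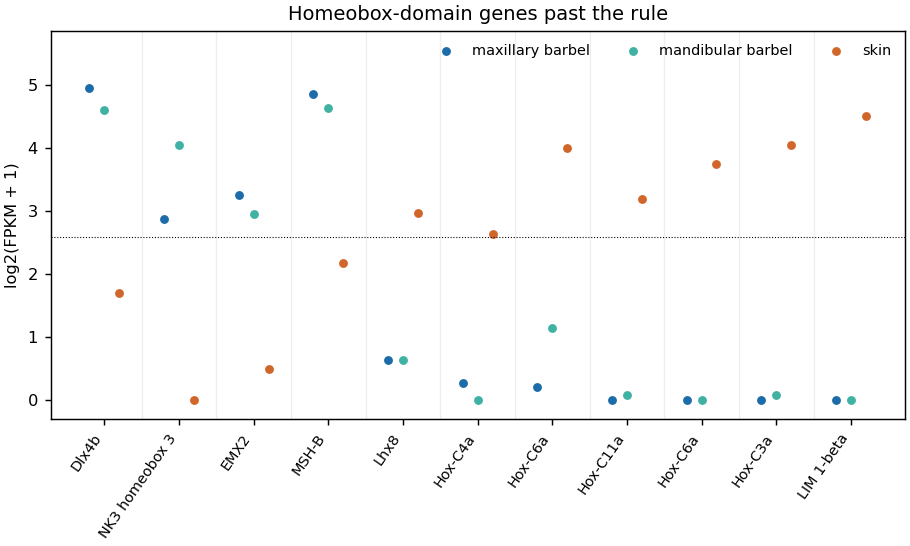
The y axis gives log2(FPKM + 1), with the maxillary barbel, the mandibular barbel and skin as points side by side, for 11 of the 12 homeobox genes past the rule, ordered on the x axis by their difference. The dotted line marks 5 FPKM. The 4 genes at the left are high in the barbels, and the 7 at the right are near 0 there and high in skin.

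On the skin side, 131 of the 4877 genes with at least 5 FPKM in skin were called (2.69%), and 113 carried a protein name. The differences, as barbel minus skin, ran from -2.0009 to -7.0008, and 26 were at 4 or more in size. Both barbels were under 1 FPKM for 69 of the 131, and 5 were listed at 0 in both. These genes held 0.201% of summed FPKM in maxillary barbel and 0.169% in mandibular barbel, against 2.70% in skin. Just inside the rule, calcium/calmodulin-dependent protein kinase II beta (C0J50_11810) had 0.637 and 0.767 FPKM in maxillary and mandibular barbel, against 6.07 FPKM in skin. Just outside, an unnamed gene (C0J50_16126) had 1.22 FPKM in the maxillary and 0.567 FPKM in the mandibular barbel, against 7.84 FPKM in skin.

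Contractile genes, many of them named as slow or cardiac, led the skin side. Of 25 muscle genes compared 12 were called (48%, against 2.69% of all), or 23 of 47 when every matching row was counted, and the median over 39 genes was -1.26. Troponin C type 1b (C0J50_01035), the calcium sensor of slow fibres, had 0.124 and 0.639 FPKM in maxillary and mandibular barbel, against 209 FPKM in skin, a difference of -7.0008. Regulatory myosin light chain 10 (C0J50_03785) had 0.441 FPKM in the maxillary and 0.945 FPKM in the mandibular barbel, against 156 FPKM in skin, and slow myosin heavy chain 3 (C0J50_02075), the motor, had 0.173 and 0.340 FPKM in maxillary and mandibular barbel, against 54.9 FPKM in skin. Both barbels were under 1 FPKM for all 3 genes. Slow skeletal troponin I (C0J50_23554) had a listed 0 in the maxillary and 0.194 FPKM in the mandibular barbel, against 77.6 FPKM in skin. Troponin T2d (C0J50_23559), named as cardiac, had 1.01 and 0.815 FPKM in maxillary and mandibular barbel, against 161 FPKM in skin. Troponin I4b (C0J50_23555) had 0.523 FPKM in the maxillary and a listed 0 in the mandibular barbel, against 54.049 FPKM in skin, a slow-type troponin I (C0J50_16647) had 0.0197 FPKM in the maxillary and a listed 0 in the mandibular barbel, against 31.3 FPKM in skin, and troponin T2e (C0J50_23122) had 0.162 FPKM in the maxillary and 0.550 FPKM in the mandibular barbel, against 45.3 FPKM in skin. Skin was far above both barbels for each of these troponins. The word cardiac rests on the names. Troponin T2d had 9.62 FPKM in heart and 279 FPKM in muscle, while troponin T2e had 111 FPKM in heart and 3.21 FPKM in muscle. Of the 8 troponin-motif genes compared 7 were called (87.5%, against 2.69% of all). The calcium pump SERCA1 (C0J50_02393), whose protein name gives no fibre type, had 0.251 and 0.710 FPKM in maxillary and mandibular barbel, against 35.8 FPKM in skin. The unnamed gene with the largest skin difference, C0J50_21453, carries an EF-hand motif and had 2.08 FPKM in the maxillary and 2.33 FPKM in the mandibular barbel, against 373 FPKM in skin. The next unnamed gene, C0J50_23556, carries a troponin motif and had 2.69 and 4.54 FPKM in maxillary and mandibular barbel, against 431 FPKM in skin, with 18459.8 FPKM in heart.

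The order of levels differed from that in the muscle library. The muscle library had 17.1 FPKM for troponin C type 1b, 6.78 FPKM for myosin light chain 10 and 1.60 FPKM for slow myosin heavy chain 3, all below skin. Of the 23 called muscle-list rows 15 were higher in skin than in the muscle library. Rows with "fast" in the protein name differed less between barbels and skin, with a median of -0.168, against -3.06 for rows with "slow" or "cardiac". Of the fast rows 16 reached 1 FPKM, and none of 7 compared was called in skin. They summed to 53.6 FPKM in maxillary barbel and 78.7 FPKM in mandibular barbel, against 96.7 FPKM in skin and 46930 FPKM in muscle. Rows with "slow" or "cardiac" in the name summed to 26.4 and 47.8 FPKM in maxillary and mandibular barbel, against 772 FPKM in skin, 6085 FPKM in muscle and 3212 FPKM in heart. Of their 14 compared rows 11 were called in skin, against 2.69% of all compared genes. The split by name was made after the values were seen, and called rows without these words, such as SERCA1, are in neither group. In the 14 fast rows at 100 FPKM or more in muscle, no value of the 3 libraries passed 0.626% of the muscle value. Reads can be shared among near-identical copies in these families, so single rows are uncertain.

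Some other called muscle genes in skin stayed far below the muscle library. The cytochrome c oxidase subunit VIa-like gene (C0J50_01496), of a muscle-type oxidase, had 2.13 FPKM in the maxillary and 3.34 FPKM in the mandibular barbel, against 202 FPKM in skin, with 1603 FPKM in muscle. Ankyrin repeat and SOCS box protein 2-like (C0J50_03489), a ubiquitin ligase adaptor of muscle, had 0.796 and 1.29 FPKM in maxillary and mandibular barbel, against 63.9 FPKM in skin, with 900.4 FPKM in muscle. The sarcomere proteins desmin (C0J50_08550), with 0.224 FPKM in the maxillary and 1.10 FPKM in the mandibular barbel, against 7.61 FPKM in skin, and LIM domain binding 3 (C0J50_17779), with 0.447 and 0.635 FPKM in maxillary and mandibular barbel, against 5.88 FPKM in skin, had 381 and 372 FPKM in muscle. The calcium store protein sarcalumenin (C0J50_10789) had 0.699 FPKM in the maxillary and 2.42 FPKM in the mandibular barbel, against 20.3 FPKM in skin, and myozenin-2 (C0J50_05594) had 0.309 and 0.360 FPKM in maxillary and mandibular barbel, against 10.8 FPKM in skin, with 935 and 193 FPKM for them in muscle. For these 6 genes skin lay above both barbels and far below muscle. The remaining called rows of the list had 5.24 to 20.05 FPKM in skin and under 2 FPKM in both barbels: beta tropomyosin (C0J50_03679), slow-type myosin-binding protein C (C0J50_11454), 3 alpha-actinin-2 rows, 2 cardiac actin rows, cardiac myosin light chain 1 (C0J50_00427) and further rows of slow myosin heavy chain 3 and myosin light chain 10. Among these remaining rows only beta tropomyosin (20.9 FPKM in muscle) and myosin-binding protein C (40.1 FPKM in muscle) were lower in skin than in muscle. The whole list summed to 616 FPKM in maxillary barbel and 707 FPKM in mandibular barbel, against 1409 FPKM in skin and 51802 FPKM in muscle. For 59 of the 131 called genes (39 and 20) the highest of the other 12 libraries was muscle or heart, or 29.8% and 15.3%, against 7.01% and 3.22% of all genes compared on the skin side. Without those 59 genes 72 remained, a count added after the values were seen. The part of muscle tissue in the skin library was not tested.

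**Figure D4:**
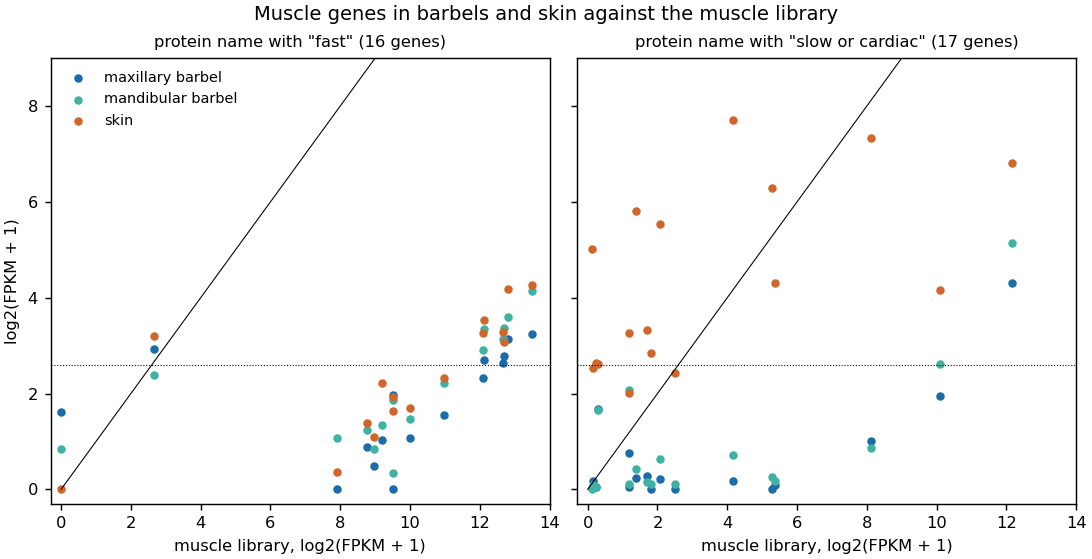
The x axis gives the muscle library and the y axis the 3 compared libraries, all as log2(FPKM + 1), for muscle-list genes with "fast" in the protein name (left, 16 genes) and with "slow" or "cardiac" in it (right, 17 genes). The solid line marks equality with muscle and the dotted line 5 FPKM. On the left the 3 libraries lie together far below muscle for most genes, and on the right skin stands above both barbels for most genes.

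Some lectins were called in skin. Of the 5 surface lectins and antimicrobials compared 2 were called (40%, against 2.69% of all), or 5 of 11 by every row. By every row 8 were above and 10 below skin in both barbels, with a median of -0.06. Among gene models with a C-type lectin motif, 27 of 48 at 1 FPKM or more were above skin and 14 below, with a median of 0.32. The rhamnose-binding lectin C0J50_18948, which binds bacterial sugars, had 1.13 FPKM in the maxillary and 0.335 FPKM in the mandibular barbel, against 110.4 FPKM in skin, and its neighbour C0J50_18947 had 12.5 and 7.42 FPKM in maxillary and mandibular barbel, against 154 FPKM in skin. Ladderlectin (C0J50_13700), a C-type lectin of fish mucus, had 108 FPKM in the maxillary and 34.5 FPKM in the mandibular barbel, against 858 FPKM in skin. Skin was highest for all 3 genes, and maxillary barbel was above mandibular barbel. The other 2 called ladderlectin rows had 7.07 and 9.87 FPKM in skin and under 1 FPKM in both barbels. Of 7 galectin-motif genes compared, 3 unnamed ones (C0J50_08269, C0J50_10305 and C0J50_10336) were called in skin (42.9%, against 2.69% of all). These 3 were listed at 0 in both barbels and had 5.14, 5.47 and 5.52 FPKM in skin. They were chosen after their values were seen. Complement factor D (C0J50_07607), a serine protease of the alternative complement pathway, had 95.4 and 79.2 FPKM in maxillary and mandibular barbel, against 145 FPKM in skin, and was at a like level.

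The remaining leading names on the skin side had mixed functions. Fatty acid binding protein 7 (C0J50_06121), the called row of the Schwann cell list, differed by -5.63 and had at most 0.649 FPKM in the other 12 libraries. Microfibril-associated glycoprotein 4 (C0J50_17342), of elastic fibres, had 0.320 FPKM in the maxillary and 0.270 FPKM in the mandibular barbel, against 28.3 FPKM in skin. A venom phosphodiesterase 1-like gene (C0J50_16686), of the nucleotide pyrophosphatase family, had 2.15 and 1.64 FPKM in maxillary and mandibular barbel, against 68.8 FPKM in skin. For each of them skin lay far above both barbels. Collagen XII (C0J50_06091) had 0.486 FPKM in the maxillary and 1.17 FPKM in the mandibular barbel, against 9.09 FPKM in skin. JunB (C0J50_14970), an early response factor, had 26.8 and 20.037 FPKM in maxillary and mandibular barbel, against 126 FPKM in skin. It was the only called gene among 21 early response and stress genes compared on the skin side (4.76%, against 2.69% of all). Among the others, jun (C0J50_17463) had 33.6 FPKM in the maxillary and 33.049 FPKM in the mandibular barbel, against 125 FPKM in skin. The median over 27 was -0.28. By every row the median over 37 was nearer to none, at -0.05, with 9 above and 19 below skin in both barbels.

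Connective tissue genes were lower in the barbels by less than the rule. Among dermal fibroblast and matrix genes 0 of 3 and 0 of 7 compared were called on the barbel and skin sides. By every row 2 of 10 were called in skin (20%, against 2.69% of all), the microfibril and collagen XII genes above. The median over 23 was -0.62, and for 19 skin was above both barbels. Collagen I alpha-2 (C0J50_19159), a main fibre of dermis, had 15.6 and 22.6 FPKM in maxillary and mandibular barbel, against 49.7 FPKM in skin. Lysyl oxidase (C0J50_18391), which cross-links collagen, had 0.154 FPKM in the maxillary and 0.276 FPKM in the mandibular barbel, against 3.70 FPKM in skin. The medians of endothelial genes (-0.28) and erythrocyte genes (-0.50) were also below 0. Beta globin (C0J50_13176) had 5.37 and 11.9 FPKM in maxillary and mandibular barbel, against 24.7 FPKM in skin.

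Few genes of general cell functions passed the rule, as over all compared genes (2.53% on the barbel side and 2.69% on the skin side). Cell cycle genes had 0 calls among 11 and 10 compared, too few genes to tell from those shares. Of 35 cell cycle genes 26 were above skin in both barbels, against 5394 of all 12610 genes, and the median was 0.35. The DNA clamp pcna (C0J50_16599) had 16.8 FPKM in the maxillary and 26.7 FPKM in the mandibular barbel, against 6.98 FPKM in skin. Oxidative phosphorylation genes had a median of 0.41, with 60 of 76 above skin in both barbels. Of 67 compared on the skin side 2 were called (2.99%, against 2.69% of all), and none on the barbel side. The 2 were the cytochrome c oxidase subunits VIa-like and VIIa 2-like (C0J50_14187) with 1603 and 658 FPKM in muscle. The summed level of that list was 4072 FPKM in maxillary barbel and 4535 FPKM in mandibular barbel, against 2810 FPKM in skin. Cytosolic ribosomal proteins had a median of -0.01 and 0 calls among 79 compared on the barbel side and 78 on the skin side. Pigment cell genes had 5 of 26 entries at 1 FPKM, and none of 1 compared on the barbel side and 2 on the skin side was called. The gene pnp4a (C0J50_17387), of the purine pathway of iridophores, had 64.8 and 65.6 FPKM in maxillary and mandibular barbel, against 22.2 FPKM in skin. Ionocyte genes had 5 entries at 1 FPKM, and cartilage and bone genes 12. Only 2 ionocyte genes and 1 cartilage or bone gene were compared on each side, and none was called. These lists are too small to tell from the share over all genes.

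**Figure D5:**
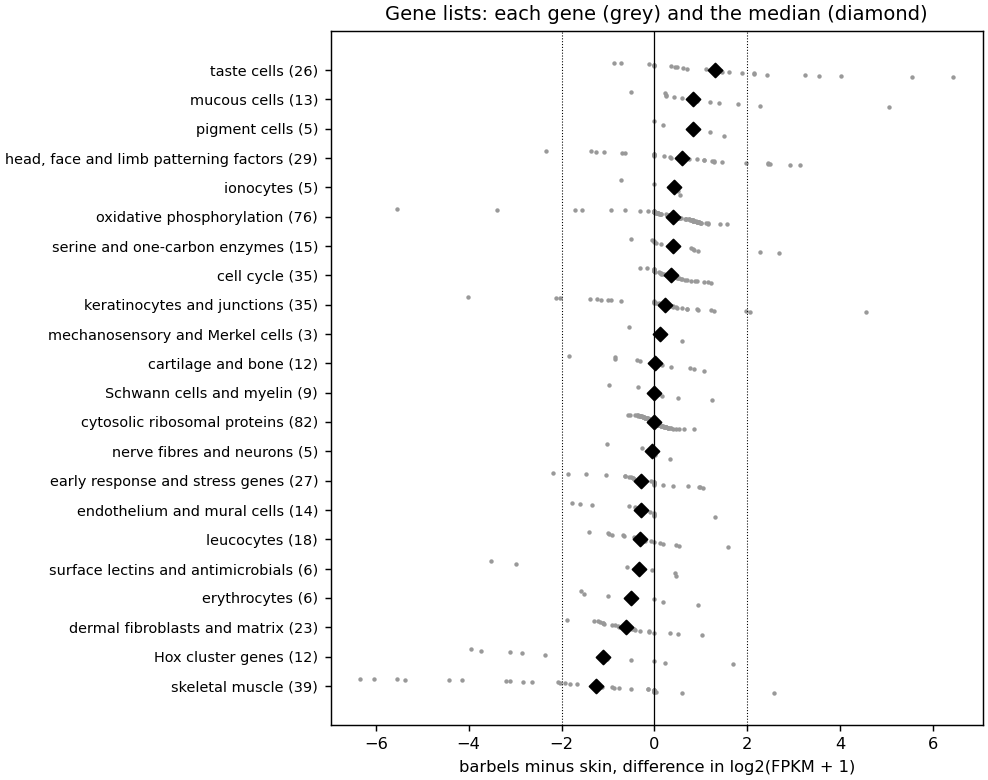
Each row is 1 of 22 gene lists, with the number of its genes at 1 FPKM or more in brackets. Grey points are genes and diamonds are medians of barbels minus skin in log2(FPKM + 1) on the x axis, and dotted lines mark 2 and -2. Taste cells have the highest median (1.303) and skeletal muscle the lowest (-1.26).

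The called genes were then set against the other 12 libraries. Of the 113 barbel genes 62 (54.9%) had a lower barbel above all 12, against 13.8% of the 4475 compared. Of the 131 skin genes 61 (46.6%) were above all 12, against 18.2% of 4877. The library labelled brain was the highest other library for 59 of the barbel genes (52.2%, against 17.7% of all compared), and 38 were at least as high there as in the lower barbel. Claudin-4 had 1359.7 FPKM in that library and cystatin C (C0J50_01301) 174 FPKM. Of the 6 called taste genes, calretinin, gamma 13a, gnb3, gna14 and Regulator of G-protein signaling 21 had at most 0.504 FPKM there, and Sox-2 had 12.99 FPKM. Of the called genes, 17 on the barbel side and 34 on the skin side had a further called gene within 5 loci on the same scaffold. No like share over all compared genes was computed, so these counts do not show clustering.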

How the data were processed

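Poly(A) RNA of 15 tissues of adult Silurus asotus was sequenced as paired-end libraries, 1 per tissue, per the labels' protocols. The authors deposited 1 table of FPKM values per gene for all libraries, and StringTie 1.3.4d is named in the submitters' processing notes. Aligner and genome build: not given in the sources used here. Positions are those of the deposited annotation, counted from 1. Read counts were not used here, so the depth is unknown apart from the estimate from low values, and no interval or floor is given. Gene models were matched by locus tag, and 25064 of 25089 genes were found in the annotation. With 1 library per tissue no test was possible, and the 3 libraries were compared on log2(FPKM + 1) with a pseudocount of 1. The difference was the lower barbel minus skin where both barbels were above skin, the higher barbel minus skin where both were below, and 0 where skin lay between. Genes listed at 0 get no fold.

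The 22 gene lists were matched by protein name. Where several rows matched a name, the row with the highest mean over 15 libraries was used, and every row was used as an alternative. Members were counted at 1 FPKM or more in any of the 3 libraries. The lists and the comparison itself were chosen with earlier results of these data known. Named genes were, per direction, the 15 named genes with the largest difference, up to 2 unnamed genes, the 2 marker genes, every called list member, and other list members where their list is described. Alternatives covered the pseudocount, the minimum, the fold, the scaling, each barbel alone and the coding length. Python 3.11.15 with pandas 2.3.3, NumPy 2.4.6 and Matplotlib 3.10.9 was used. The rule was also run on simulated data, with planted changes larger than its own threshold and no spread between fish. That run checks the code and does not measure false calls in these libraries. Of the genes the rule names, 2 are not reported here and are left out of the plots.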

Additional observations from a re-analysis of the deposited data

How the results depend on the processing

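With 1 library per tissue there was no replicate to leave out, beyond taking each barbel alone, and the spread between fish is not known. No paired analysis was possible because the 3 tissues have 1 library each and the labels carry no replicate number. The shallow libraries limit genes under the 5 FPKM minimum, which includes most taste receptors and channels.

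The count of genes higher in barbels was 113. It was 36 with a pseudocount of 5, 45 with a minimum of 20 FPKM, 36 with a 10-fold rule, 175 with maxillary barbel alone and 176 with mandibular barbel alone. The count of genes higher in skin was 131, and it was 46, 61 and 38 under the same pseudocount, minimum and fold. Genes at a like level numbered 2986, against 7391 with a minimum of 1 FPKM and 713 with a minimum of 20 FPKM. Under the other alternatives from the plan, which include scaling by median ratios and to a common sum, the barbel and skin counts stayed within 1.5 times. In alternatives chosen after seeing the data, 54 barbel genes were left without those whose highest other library is the one labelled brain, and 72 skin genes without those highest in muscle or heart. Of 132 list medians under alternatives, 127 moved by at most 0.5. No median of at least 0.5 in size changed sign, and sign changes of smaller medians were not counted. With a pseudocount of 0.1 the medians were 2.28 for taste cells, 1.54 for pigment cells, -3.02 for Hox genes and 1.29 for patterning factors, and with mandibular barbel alone the median was 0.65 for mechanosensory cells. Of 930 values of 78 named genes under alternatives, 825 kept the call, 105 no longer passed the rule, and none changed direction. The cause was not tested.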
